A study of Mus musculus with 10 samples.

Results

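Polyribosome-associated mRNA of primary mouse embryonic fibroblasts was read on 4 of the 10 arrays of the series, 2 from labelled cultures and 2 from unlabelled cultures. Labelled cultures had received 4-thiouridine at 200 uM and 3H-cytidine at 1 uCi during the last incubation, and unlabelled cultures had received neither. Within each set, 1 array came from serum-treated cells (10% fetal bovine serum for 2 h) and 1 from starved cells (1% serum for 2 h). The 4 arrays were chosen by their titles alone: the labelled arrays are replicate 2 of each serum state and the unlabelled arrays replicate 1.

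All cells were isolated from embryos at e14.5 of genotype C57/BLACK6, ATF1 +/-, so every culture carried 1 disrupted copy of Atf1. Every culture had been starved for 48 h in 1% serum beforehand and was given cycloheximide, which arrests ribosomes, at 100 ug/ml for 30 min before lysis. Like fractions of several biological and technical replicates were pooled per array, so each array is a pool. With 1 array per serum state and labelling, p-values rest on how far the labelling difference varied between serum states. The rest of their spread is borrowed from other probe sets, and spread between like pools is not measured. Labelling and replicate number coincide on every array. What labelling did and what any other difference between the first and second set of cultures did cannot be told apart. The question is which mRNAs on polyribosomes differed between the 2 sets of cultures, and how large these differences were beside the response to serum.

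4-Thiouridine is a uridine analogue that cells take up through nucleoside transporters and build into new RNA, where its sulphur atom lets new transcripts be pulled out by chemical coupling. Uptake goes through equilibrative transporters such as the product of Slc29a1, and uridine-cytidine kinases then phosphorylate the nucleoside. Secreted and membrane proteins fold in the endoplasmic reticulum, where protein disulphide isomerases join cysteines and chaperones such as Hspa5 hold unfolded chains. When unfolded chains build up, the unfolded protein response raises the mRNAs of these helpers through ATF6 and XBP1, which act at a promoter element with a CCAAT box and a CCACG box set 9 bases apart.

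Pdia4 and Pdia6, which encode disulphide isomerases, passed as higher in labelled cultures in the test given below, so their promoters are shown beside those of 3 other folding genes to let the element be seen. Pdia3, Hspa5 and Hsp90b1 did not pass, and were added after their values were seen, as neighbours in the same list. Each line is the 250 bases upstream of the transcription start in RefSeq (GRCm38.p6), written 5′ to 3′ on the gene's strand, with matches to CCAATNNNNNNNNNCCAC in capitals, on either strand and with the final G where it is present. The windows are chr12:17266339-17266588 (plus strand) for Pdia6, chr6:47813513-47813762 (minus) for Pdia4, chr2:121413652-121413901 (plus) for Pdia3, chr2:34771840-34772089 (plus) for Hspa5 and chr10:86705445-86705694 (minus) for Hsp90b1.
Pdia6: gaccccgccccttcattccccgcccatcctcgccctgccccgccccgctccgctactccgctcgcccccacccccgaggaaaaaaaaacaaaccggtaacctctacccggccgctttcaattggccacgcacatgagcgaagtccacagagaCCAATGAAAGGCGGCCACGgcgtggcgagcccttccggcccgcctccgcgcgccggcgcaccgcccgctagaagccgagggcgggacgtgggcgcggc
Pdia4: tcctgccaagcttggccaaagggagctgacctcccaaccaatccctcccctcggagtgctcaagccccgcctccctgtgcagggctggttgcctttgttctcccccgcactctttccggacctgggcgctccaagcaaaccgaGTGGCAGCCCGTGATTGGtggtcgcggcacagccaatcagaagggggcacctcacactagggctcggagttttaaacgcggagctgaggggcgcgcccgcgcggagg
Pdia3: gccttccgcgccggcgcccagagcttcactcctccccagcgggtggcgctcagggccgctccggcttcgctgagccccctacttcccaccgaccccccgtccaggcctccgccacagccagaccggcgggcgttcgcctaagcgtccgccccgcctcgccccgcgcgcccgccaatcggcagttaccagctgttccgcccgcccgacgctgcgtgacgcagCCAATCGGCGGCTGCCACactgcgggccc
Hspa5: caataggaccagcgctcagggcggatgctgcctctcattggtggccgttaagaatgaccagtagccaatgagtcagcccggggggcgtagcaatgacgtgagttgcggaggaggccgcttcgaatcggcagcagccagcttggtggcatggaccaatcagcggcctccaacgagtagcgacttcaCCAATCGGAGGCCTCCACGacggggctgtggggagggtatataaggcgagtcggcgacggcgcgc
Hsp90b1: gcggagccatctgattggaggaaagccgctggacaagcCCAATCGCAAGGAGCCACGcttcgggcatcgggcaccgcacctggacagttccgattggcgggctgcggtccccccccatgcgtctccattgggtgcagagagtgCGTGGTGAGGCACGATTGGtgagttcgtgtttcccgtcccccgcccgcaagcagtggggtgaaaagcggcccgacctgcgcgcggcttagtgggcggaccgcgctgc

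The full element, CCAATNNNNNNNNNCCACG on either strand, lies in the upstream window of 35 of 27025 genes with a promoter in the table (0.13%). It lies in 7 of the 15 unfolded protein response genes that have one (46.7%), in Pdia6 alone among the 11 genes with a promoter there that rose in labelled cultures, and in none of the 8 that fell. Tested holders in that list whose promoters are not shown did not share a direction. Their log2 differences between labelled and unlabelled cultures were -0.289 for Canx, 0.326 for Creld2 and 0.425 for Dnajc3. Without the final G, the match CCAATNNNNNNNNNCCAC is found in 101 of the 27025 windows (0.374%), in 10 of the 15 and in Pdia4 and Pdia6 of the 11. The Pdia6 match spans bases 98 to 81 before the start and the Pdia4 match, on the opposite strand, bases 107 to 90. Hsp90b1 has a pair of matches and the other genes have 1 each. These are matches of letters in a window and show no binding.

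The labelled and unlabelled arrays were similar in brightness but not in how evenly transcripts were covered. Median intensity was 45.3 and 45.6 on the labelled arrays, against 46.9 and 54.2 on the unlabelled arrays (serum-treated first, then starved, here and throughout), and 73.5% and 68% of probe sets lay above background, against 70% and 69.7%. Gapdh, a glycolytic enzyme whose transcript is probed by control sets near its 3′ end, middle and 5′ end, gave a 3′ to 5′ ratio of 6.11 and 6.24 on the labelled arrays, against 20.9 and 14.4 on the unlabelled arrays. The ratio thus was lower on both labelled arrays, and the groups did not overlap. For Actb, which encodes cytoplasmic actin, the ratio was 12.8 and 11.5 on labelled arrays, against 21.1 and 13.4 on unlabelled arrays. In undertranslated RNA the Gapdh ratio was 4.53 and 6.81 on labelled arrays, against 3.70 and 5.64 on unlabelled arrays. In polyribosome RNA this 3′ to 5′ ratio moves with labelling. Its part in the results was not tested.

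**Figure D1:**
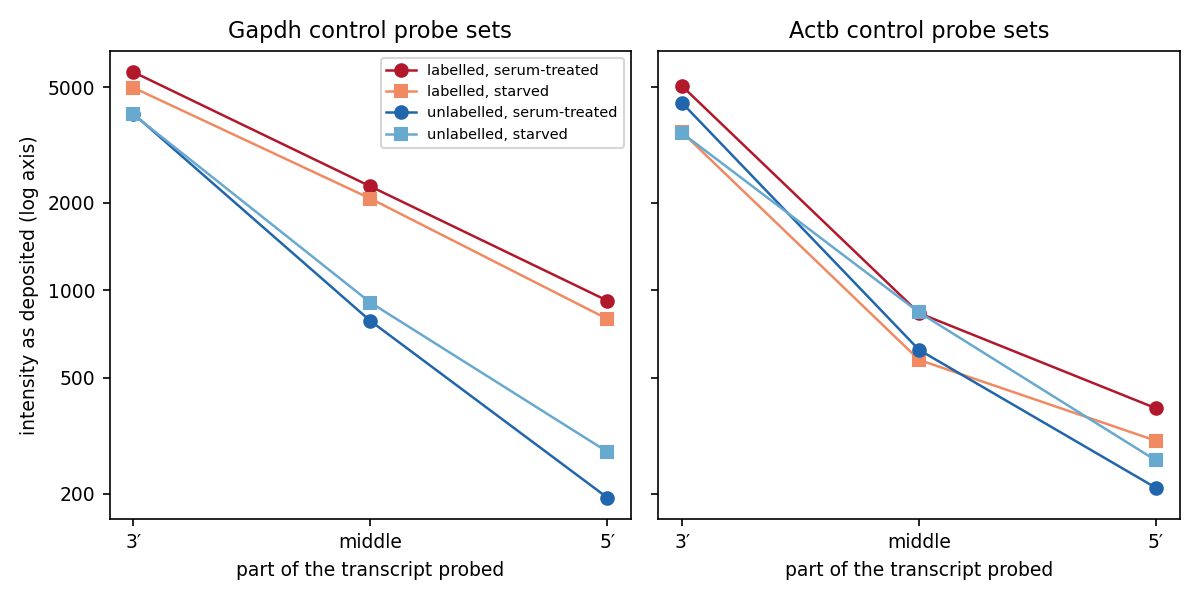
Deposited intensity (log axis) of the control probe sets for Gapdh and Actb at the 3′ end, middle and 5′ end of the transcript on the 4 polyribosome arrays, 1 point per array. At the 5′ end the Gapdh set read 921.4 and 797.3 on labelled arrays, against 193.7 and 278.6 on unlabelled arrays, while at the 3′ end it read 5631.6 and 4975.6, against 4045.3 and 4023.9.

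The labelled and unlabelled cultures differed at 25 of 9316 probe sets tested (0.268%), of which 15 were higher in labelled cultures (0.161%) and 10 lower (0.107%). limma was fitted to scaled log2 levels of the 4 arrays with serum state as a factor, and a probe set passed at a Benjamini-Hochberg adjusted p under 0.05. With 1 residual degree of freedom, the test borrows nearly all of its spread from the other probe sets. At an unadjusted p under 0.05 there were 826 higher and 835 lower. All 25 had the same sign in the serum-treated pair and in the starved pair, as did 62.1% of all probe sets tested. The test itself favours such agreement, because its only residual is the difference between the 2 pairs. In all 15 higher and 9 of the 10 lower ones the labelled arrays lay wholly on one side of the unlabelled arrays, which also held for 2058 probe sets of all tested in the higher direction (22.1%) and 1952 in the lower direction (21%). Of the 25, 22 carry 1 gene symbol and stand for 12 genes that were higher and 9 that were lower. Probe sets of a gene often differed. Across 1298 genes, the labelling differences of the 2 highest-level tested probe sets correlated at r = 0.262, with 60.3% of the same sign. A pass is therefore a result of that probe set and not of the gene as a whole. The number that passed depends strongly on scaling. With quantile normalization over the 4 polyribosome arrays in place of all 10, 206 passed (2.21%), 100 higher (1.07%) and 106 lower (1.14%), all 25 among them. None passed without the level filter, without the variance trend, without the serum factor or in a fit of all 8 gradient arrays. With a polyribosome array left out of that fit, the polyribosome arrays leave no residual of their own. The spread then comes from the noisier undertranslated arrays, so a count of passes cannot show reliance on any 1 array.

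Set beside the serum response on the same arrays, the labelling difference was of like size across the table but passed the adjusted threshold at fewer probe sets. The median absolute log2 difference was 0.24 for labelled against unlabelled arrays and 0.20 for serum-treated against starved arrays. The difference was over 1 at 184 probe sets (1.98%) for labelling and at 240 (2.58%) for serum. For serum, 150 probe sets passed (1.61%), 104 higher and 46 lower after serum. At an unadjusted p under 0.05 in the same limma fit the order was the reverse, with 1661 probe sets for labelling and 1135 for serum. Spred2, which encodes a membrane inhibitor of Ras-ERK signalling, was the 1 probe set that passed in both. The labelling difference in the serum-treated pair and that in the starved pair correlated across probe sets at r = 0.286 (Spearman 0.323, n = 9316), and 62.1% of probe sets had the same sign in both. Each pair is a single array against a single array, and all 4 were normalized together.

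**Figure D2:**
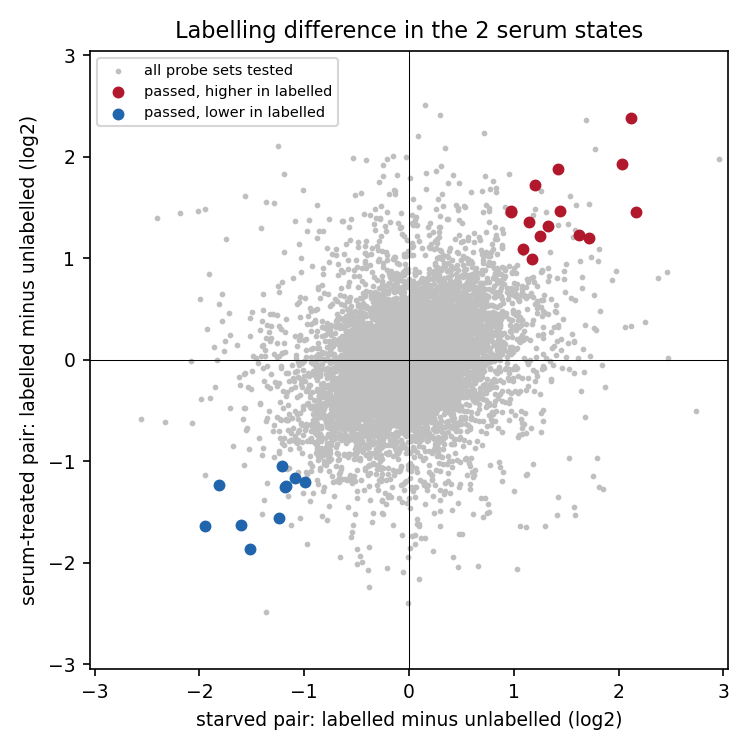
Labelled minus unlabelled level (log2) of each of 9316 probe sets in the serum-treated pair (vertical axis) against the starved pair (horizontal axis). The 15 probe sets that passed as higher lie in the upper right and the 10 that passed as lower in the lower left.

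Among the genes that rose in labelled cultures were Pdia6, Pdia4, Ppib and Tmem147, whose products work in the endoplasmic reticulum. Pdia6 encodes a protein disulphide isomerase. Its probe set 94208_at had scaled log2 levels of 6.48 and 6.63 in labelled cultures, against 4.56 and 4.60 in unlabelled cultures, a log2 difference of 1.98 ± 0.18 (SE of the fit, here and below, n = 2 each; adjusted p = 0.00861, the smallest of the comparison) or 3.94-fold. Both labelled arrays lay far above both unlabelled arrays. A second Pdia6 probe set, 94209_g_at, read 7.40 and 7.32 in labelled cultures, against 5.93 and 5.88 in unlabelled cultures (1.46 ± 0.17, adjusted p = 0.0308). The third, 94207_at, which has the highest level, did not pass, at 7.78 and 7.39 against 7.49 and 6.94 (0.38 ± 0.17, adjusted p = 0.286). The 3 probe sets of this gene thus share a direction and differ widely in size.

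Pdia4, another disulphide isomerase of the same compartment, read 6.06 and 6.35 in labelled cultures, against 4.61 and 4.18 in unlabelled cultures (1.81 ± 0.22, adjusted p = 0.0308, 3.50-fold). Ppib encodes cyclophilin B, a proline isomerase that assists procollagen folding, and read 8.51 and 8.05 in labelled cultures, against 7.04 and 7.08 in unlabelled cultures (1.22 ± 0.19, adjusted p = 0.0396). Tmem147, a membrane protein of the endoplasmic reticulum that associates with the translocon, read 6.93 and 6.68 in labelled cultures, against 5.48 and 5.71 in unlabelled cultures (1.21 ± 0.19, adjusted p = 0.0396). The groups did not overlap for any of these genes.

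The wider unfolded protein response list held mostly differences above 0 that did not pass. Of its 15 tested genes, Pdia4 passed as higher and none passed as lower, against 0.162% higher and 0.133% lower of the 6786 genes tested with 1 probe set each. Differences were above 0 for 12 of the 15, and the median was 0.35, against -0.01 over all genes. Labelled arrays lay wholly above unlabelled arrays for 7 of the 15, against 22.3% of all genes, and wholly below for 2, against 21.4%. Values that did not pass include 0.89 ± 0.24 for Hsp90b1, a chaperone of the HSP90 family (adjusted p = 0.11), 0.74 ± 0.19 for the disulphide isomerase Pdia3 (adjusted p = 0.0931) and 0.57 ± 0.18 for Hspa5 (adjusted p = 0.148).
Hspa5 itself read 10.55 and 10.35 in labelled cultures, against 10.17 and 9.60 in unlabelled cultures. At the low end stood Dnajb9, a cochaperone at -0.32 ± 0.17, and the lectin chaperone Canx at -0.29 ± 0.18, for which another probe set gave 0.15 ± 0.19. Xbp1, which encodes a transcription factor of the response, had 0.24 ± 0.17. Calr and Hyou1 lay under the level filter and above background on no polyribosome array.

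Slc29a1, which encodes an equilibrative nucleoside transporter, was the 1 gene of pyrimidine and nucleoside metabolism that passed among 23 tested, against 0.162% of all genes in that direction. Its level was 5.09 and 5.38 in labelled cultures, against 3.37 and 4.18 in unlabelled cultures (1.46 ± 0.23, adjusted p = 0.0396, 2.75-fold). The groups did not overlap, but a second probe set of the gene, 161687_r_at, read 3.87 and 4.32 against 4.02 and 3.85 (0.16 ± 0.27, adjusted p = 0.824) and did not share the difference. For the uridine-cytidine kinase Uck2 the difference was -0.05 ± 0.18, for its paralogue Uck1 it was -0.01 ± 0.20, and for the uridine phosphorylase Upp1 it was -0.12 ± 0.18. Ctps2, a CTP synthase, had 0.73 ± 0.17 (adjusted p = 0.0736). The list's median was 0.13, with 14 of 23 genes above 0.

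Of the other genes that rose, Ogfr encodes a receptor for the opioid growth factor, a peptide that slows cell growth. It read 5.05 and 4.81 in labelled cultures, against 2.66 and 2.69 in unlabelled cultures (2.25 ± 0.28, adjusted p = 0.0308), where it was not above background on either array. On the scaled values it was therefore at least 3.58-fold higher in labelled cultures, the labelled mean being set, on each unlabelled array, against its own level or the dimmest level above background, whichever is greater. Mmp14, a membrane-bound protease that cuts pericellular collagen, read 8.88 and 9.19 in labelled cultures, against 7.56 and 7.86 in unlabelled cultures (1.32 ± 0.17, adjusted p = 0.0314).

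Rabac1, a Golgi membrane protein that binds prenylated Rab GTPases, read 8.94 and 8.81 in labelled cultures, against 7.72 and 7.56 in unlabelled cultures (1.24 ± 0.17, adjusted p = 0.0346). Arsa, the lysosomal arylsulphatase A, read 7.69 and 7.26 in labelled cultures, against 6.33 and 6.11 in unlabelled cultures (1.25 ± 0.17, adjusted p = 0.0346), but its second probe set, 161286_f_at, gave 0.18 ± 0.22 (adjusted p = 0.745). Hdac3, the histone deacetylase of nuclear receptor corepressor complexes, read 5.53 and 5.51 in labelled cultures, against 4.31 and 3.89 in unlabelled cultures (1.43 ± 0.21, adjusted p = 0.0396). On the probe sets that passed, all 3 were higher on both labelled arrays, by 1.15 to 1.63 log2 units within a pair. Mlf2 (1.65 ± 0.22) and the vesicle membrane protein gene Syngr1 (1.46 ± 0.24) also passed and did not overlap between groups.

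Of the genes that fell, Ash2l, a core subunit of the complexes that methylate histone H3 at lysine 4, read 2.84 and 3.35 in labelled cultures, against 4.71 and 4.87 in unlabelled cultures (-1.69 ± 0.26, adjusted p = 0.0396). Its deposited intensity on the labelled arrays, 11.2 and 17.7, lay just above their backgrounds of 11 and 15.5, so the size of the fall is uncertain. Kdm6a, an X-linked demethylase of histone H3 lysine 27, read 4.37 and 5.02 in labelled cultures, against 5.61 and 6.20 in unlabelled cultures (-1.21 ± 0.18, adjusted p = 0.0396). Both were lower on each labelled array than on either unlabelled array. Suz12, a Polycomb subunit, came close without passing, with -1.93 ± 0.39 (adjusted p = 0.0615). Its probe set was above background on both unlabelled arrays and on no labelled array, which makes that probe set at least 2.38-fold lower in labelled cultures on the scaled values, but its other probe sets were above background on all 4 arrays and differed from each other. They gave -0.83 ± 0.18 for 94044_at (adjusted p = 0.0666) and 0.05 ± 0.34 for 101662_at (adjusted p = 0.958). The next largest negative differences, Chic1 at -1.69 ± 0.43 (adjusted p = 0.0908) and Sdf2, a protein of the endoplasmic reticulum lumen, at -1.57 ± 0.38 (adjusted p = 0.0823), did not pass either. With quantile normalization over the 4 arrays Suz12 (adjusted p = 0.039) and Sdf2 (adjusted p = 0.0453) passed.

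Hnrnpu, a nuclear RNA-binding scaffold protein, read 3.96 and 4.02 in labelled cultures, against 5.20 and 5.84 in unlabelled cultures (-1.53 ± 0.22, adjusted p = 0.0396). Its other probe set, 93761_at, had the opposite sign and did not pass (0.59 ± 0.41). Srsf1, a splicing factor rich in serine and arginine, read 5.29 and 5.42 in labelled cultures, against 6.34 and 6.64 in unlabelled cultures (-1.13 ± 0.18, adjusted p = 0.0396), while its 3 other probe sets gave 0.14, -0.23 and -0.34. These were the 2 genes that passed among 51 tested splicing and hnRNP genes, against 0.133% of all genes in that direction. The list's median was -0.06, with 22 above 0. Srsf2 (-0.67 ± 0.18) and Srsf9 (0.93 ± 0.24) stood at opposite sides and did not pass.

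Meg3 is a maternally expressed long noncoding RNA. It read 5.24 and 5.81 in labelled cultures, against 6.80 and 7.05 in unlabelled cultures (-1.40 ± 0.18, adjusted p = 0.0314), and its other probe set, 160173_at, gave -0.39 ± 0.25. Among 14 tested imprinted genes it was the 1 that passed, against 0.133% of all genes as lower. The rest ranged between -0.66 for Plagl1, a zinc finger factor, and 0.82 for Sgce, which encodes a sarcoglycan, and the median was 0.07.

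Spred2 read 7.49 and 5.93 in labelled cultures, against 8.74 and 7.12 in unlabelled cultures (-1.22 ± 0.17, adjusted p = 0.0346). Its groups overlap, and its serum response in the same fit was larger, at 1.59 log2 units. Cab39, a scaffold of the LKB1 kinase, read 7.34 and 7.32 in labelled cultures, against 8.55 and 8.30 in unlabelled cultures (-1.09 ± 0.17, adjusted p = 0.0396). Dennd4c, an exchange factor for Rab GTPases, read 6.15 and 6.56 in labelled cultures, against 7.32 and 7.64 in unlabelled cultures (-1.13 ± 0.17, adjusted p = 0.0396). The groups overlapped for neither. Zap70, a tyrosine kinase of T cells, gave -1.62 ± 0.25 on 93663_r_at. On the labelled arrays it read 13.8 and 17.3 as deposited, near their backgrounds of 11 and 15.5. Its other probe sets lay under the level filter, so this difference rests on a single probe set of a gene that is not a fibroblast marker.

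**Figure D3:**
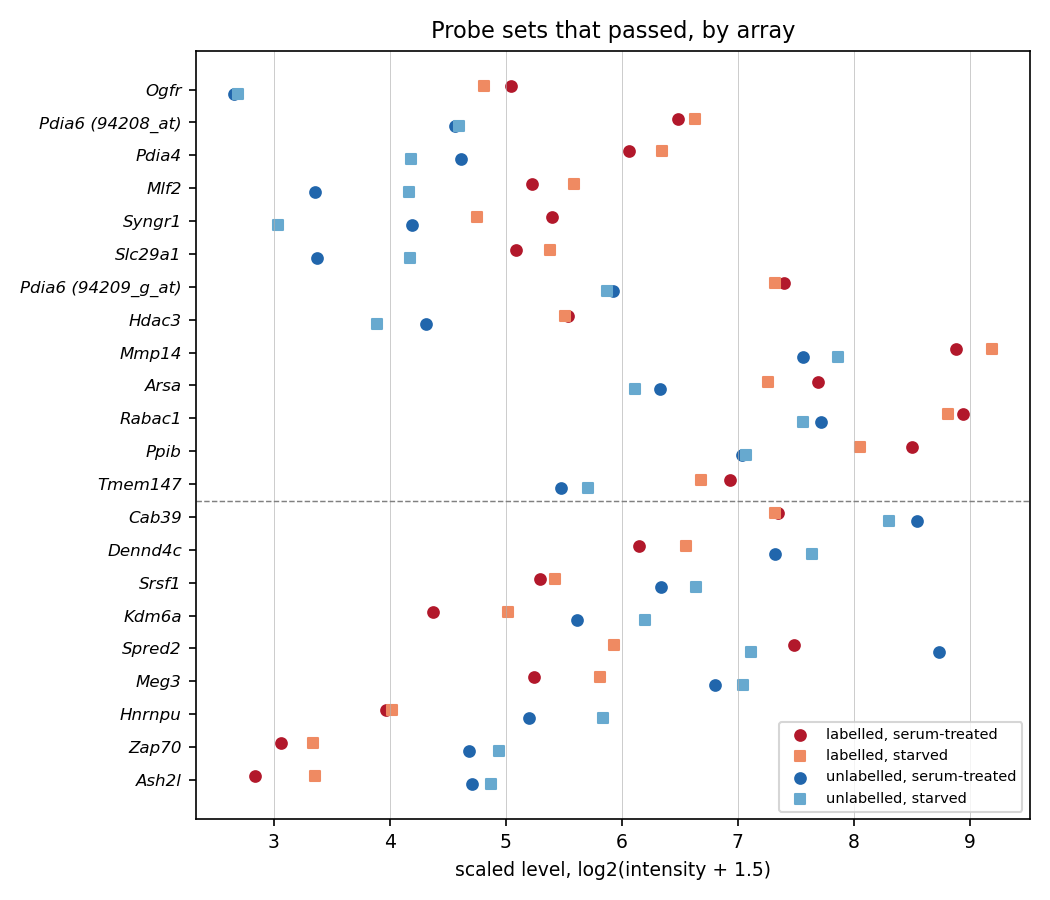
Scaled log2 level on each polyribosome array for the 22 probe sets that passed and carry 1 gene symbol, genes that were higher in labelled cultures above the dashed line and lower ones under it. Red and orange points (labelled) and blue points (unlabelled) are apart in every row but that of Spred2, where the serum-treated and starved arrays differ more than the labelled and unlabelled ones.

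Immediate-early transcription factors, which serum induces within minutes to hours, had differences below 0 for 13 of the 23 tested, and none passed. How many passed depended on scaling. As deposited, 9 passed as lower (39.1%, against 5.26% of all genes), and with median centring 6 passed as lower (26.1%, against 3.76%). With quantile normalization over the 4 arrays none passed as lower and 1, Ier2, as higher. With scaling by the 9 hybridization controls none passed, against 1.77% of all genes as lower. In the reported fit labelled arrays lay wholly below unlabelled arrays for 6 of the 23, against 21.4% of all genes, and wholly above for 3, against 22.3%. At an unadjusted p under 0.05 in the reported fit, 9 were lower in labelled cultures (39.1%, against 9.84% of all genes) and 1 was higher (4.35%, against 9.17%). Egr1, a zinc finger factor of this class, read 10.85 and 11.06 in labelled cultures, against 11.99 and 11.79 in unlabelled cultures (-0.94 ± 0.19, adjusted p = 0.0607), while its other probe set, 161802_i_at, gave 0.27 ± 0.50. Egr2 read 11.34 and 11.33, against 12.54 and 11.99 (-0.94 ± 0.20, adjusted p = 0.0619). The size of both depends on scaling. With quantile normalization over the 4 arrays it was -0.495 for the first Egr1 set and -0.397 for Egr2. On the first Egr1 set and on the Egr2 set both labelled arrays lay under both unlabelled arrays.
Fosb, Nr4a2, Klf6, Klf10 and Zfp36 had values of -0.88, -0.86, -0.83, -0.82 and -0.71. In each of these 5 the serum-treated pair differed more (-1.04 to -1.51) than the starved pair (-0.22 to -0.53), a contrast that 1 array a cell leaves untested. Ier2 stood opposite, at 9.58 and 9.39 in labelled cultures, against 8.91 and 8.55 in unlabelled cultures (0.76 ± 0.17, adjusted p = 0.0687). Fos, a subunit of AP-1, had -0.60 in the serum-treated pair and 0.30 in the starved pair. The list's median was -0.15, with 10 of 23 above 0.

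**Figure D4:**
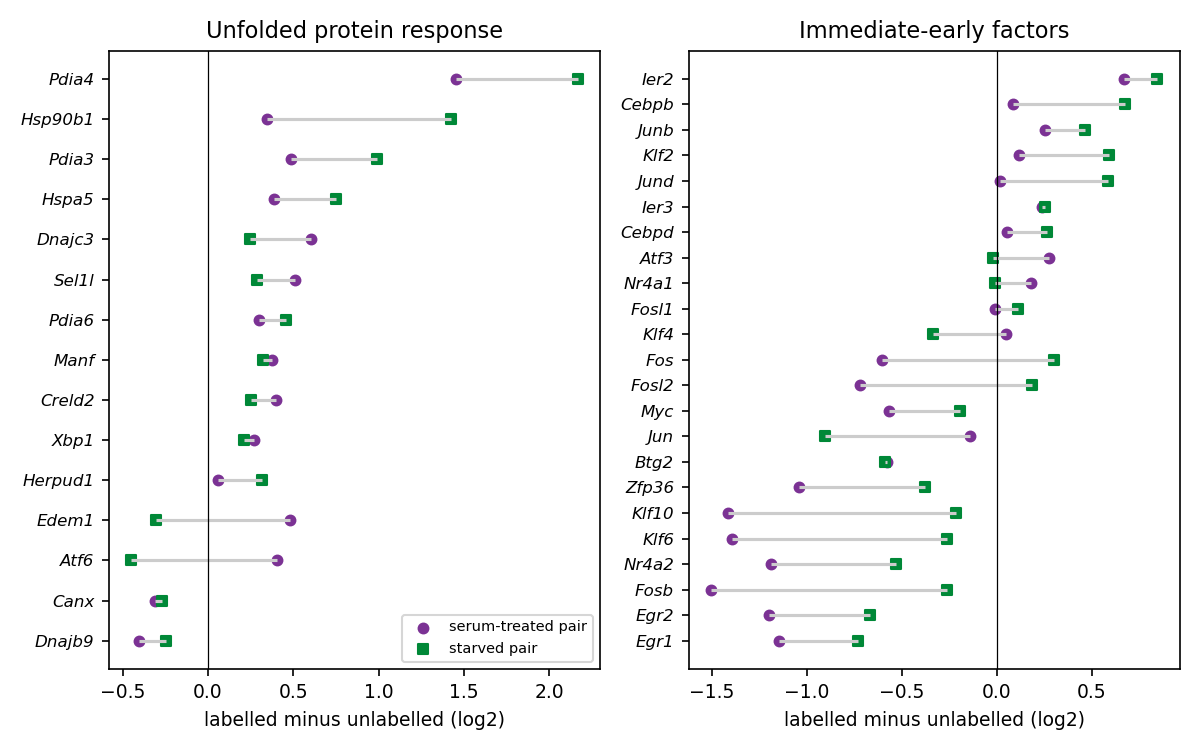
Labelled minus unlabelled level (log2) in the serum-treated pair (circles) and in the starved pair (squares) for the 15 tested unfolded protein response genes, where Pdia6 is shown by its highest-level probe set, and the 23 tested immediate-early factors. Most genes on the left lie right of 0 in both pairs, with Pdia4 farthest, and Fosb, Klf10 and Klf6 differ mainly in the serum-treated pair.

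Classical stress programmes known to answer nucleoside analogues showed no member that passed. Of all genes tested, 0.162% passed as higher and 0.133% as lower, so lists this small would seldom hold one. Among 15 tested p53 targets the median was 0.06. Cdkn1a, which encodes the cell cycle inhibitor p21, was the most different, with 8.18 and 7.88 in labelled cultures, against 7.16 and 7.12 in unlabelled cultures (0.89 ± 0.17, adjusted p = 0.0607), and a second probe set gave 0.62 ± 0.18. Mdm2, the ubiquitin ligase of p53, had -0.14 ± 0.17, and Gadd45a had -0.69. No group overlap was seen for Cdkn1a, but the 15 p53 targets lay on both sides of 0, 8 above, Cdkn1a among them, and 7 under.
For 28 ribosome biogenesis factors the median was 0.07 and for 22 targets of the integrated stress response it was 0.12. In the stress response list Ddit3, a pro-apoptotic factor, had 0.56 ± 0.18 (adjusted p = 0.144), Atf4 had 0.29 ± 0.18 and Trib3 had 0.01 ± 0.19. Interferon-stimulated genes (25 tested) had a median of 0.13, with 0.78 ± 0.18 for Ifi35 (adjusted p = 0.0736). Among 21 Nrf2 and oxidative stress genes the median was 0.12. Gclc, the catalytic subunit of glutathione synthesis, lay lower (-0.94 ± 0.17, adjusted p = 0.0607) and the autophagy receptor gene Sqstm1 higher (0.67 ± 0.17, adjusted p = 0.0946), and neither passed. Heat shock genes (14 tested) had a median of 0.08, with Hspa8, the constitutive cytosolic chaperone, at 0.80 ± 0.17 (adjusted p = 0.0616). With quantile normalization over the 4 arrays, Cdkn1a (adjusted p = 0.0342) and Hspa8 (adjusted p = 0.0417) passed as higher and Gclc (adjusted p = 0.0342) as lower, against 1.14% of all genes higher and 1.36% lower.

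Several groups of housekeeping mRNAs had medians above 0 without any member that passed. Proteasome subunits were above 0 for 28 of 35 genes, with a median of 0.17, and labelled arrays lay wholly above unlabelled arrays for 17 of them, against 22.3% of all genes, and wholly below for 2, against 21.4%. The regulatory subunit Psmd4 read 8.83 and 8.78 in labelled cultures, against 7.97 and 7.80 in unlabelled cultures (0.92 ± 0.17, adjusted p = 0.0607). Psmd13 had 0.85 ± 0.17. With quantile normalization over the 4 arrays, 4 proteasome genes passed as higher (11.4%, against 1.14% of all genes), Psmd4 and Psmd13 among them. With median centring 5 passed as higher (14.3%, against 2.15%), and as deposited or with hybridization control scaling none passed.
Oxidative phosphorylation subunits were above 0 for 46 of 63 genes (median 0.16) and wholly apart on the higher side for 30, against 22.3% of all genes, and on the lower side for 8, against 21.4%. Cytoplasmic ribosomal proteins were above 0 for 24 of 30 (median 0.23), with Rpl13a at 0.78 ± 0.17. Extracellular matrix genes were above 0 for 29 of 38 (median 0.16), led by the collagen chain Col6a2 at 0.82 ± 0.18 and the collagen-binding proteoglycan Fmod at 0.74 ± 0.17. Translation factors lay on both sides of 0, with a median of 0.01 over 44 genes. Eif3k (0.96 ± 0.17, adjusted p = 0.0564) and the elongation factor Eef2 (0.87 ± 0.18, adjusted p = 0.0607) did not pass. With quantile normalization over the 4 arrays Eif3k, Eef2, Rpl13a, Col6a2 and Fmod passed as higher. In that setting 2 translation factors passed as higher and 2 as lower (4.55% each), against 1.14% and 1.36% of all genes. For ribosomal proteins 1 passed as higher (3.33%) and for matrix genes 2 (5.26%), with none lower in either list.
On the other side, starvation and FoxO-linked genes had a median of -0.22 with 12 of 17 under 0, Ccng2 at -0.63 ± 0.18 among them. Chemokines and interleukin 1 genes had a median of -0.18 with 13 of 18 under 0. The remaining pathway lists (DNA replication, mitosis, cholesterol synthesis, Hox, actin, glycolysis, histone and amino acid transporter genes) had medians between -0.07 and 0.18 and no member that passed in the reported fit. Rpa1, a DNA replication gene, came close at 1.43 ± 0.25 (adjusted p = 0.0538). It passed with quantile normalization over the 4 arrays (adjusted p = 0.0248). Of the 26 tested genes of that list, 17 were above 0 and 9 below.

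These small shifts are relative to the scaling. Without scaling the median over all genes was -0.19, and with scaling by the 9 hybridization controls it was -0.30. With the hybridization controls the medians turned negative for proteasome (-0.10), ribosomal protein (-0.11), oxidative phosphorylation (-0.14) and matrix genes (-0.17), and that of the unfolded protein response genes was 0.07. Relative to the median of all genes they were 0.20, 0.19, 0.17, 0.13 and 0.37. Immediate-early genes were at -0.42, or -0.12 relative to all genes. The medians given above for the p53, ribosome biogenesis, stress response, interferon, Nrf2, heat shock, nucleoside and imprinted lists were also under 0 with that scaling, between -0.31 and -0.20.

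**Figure D5:**
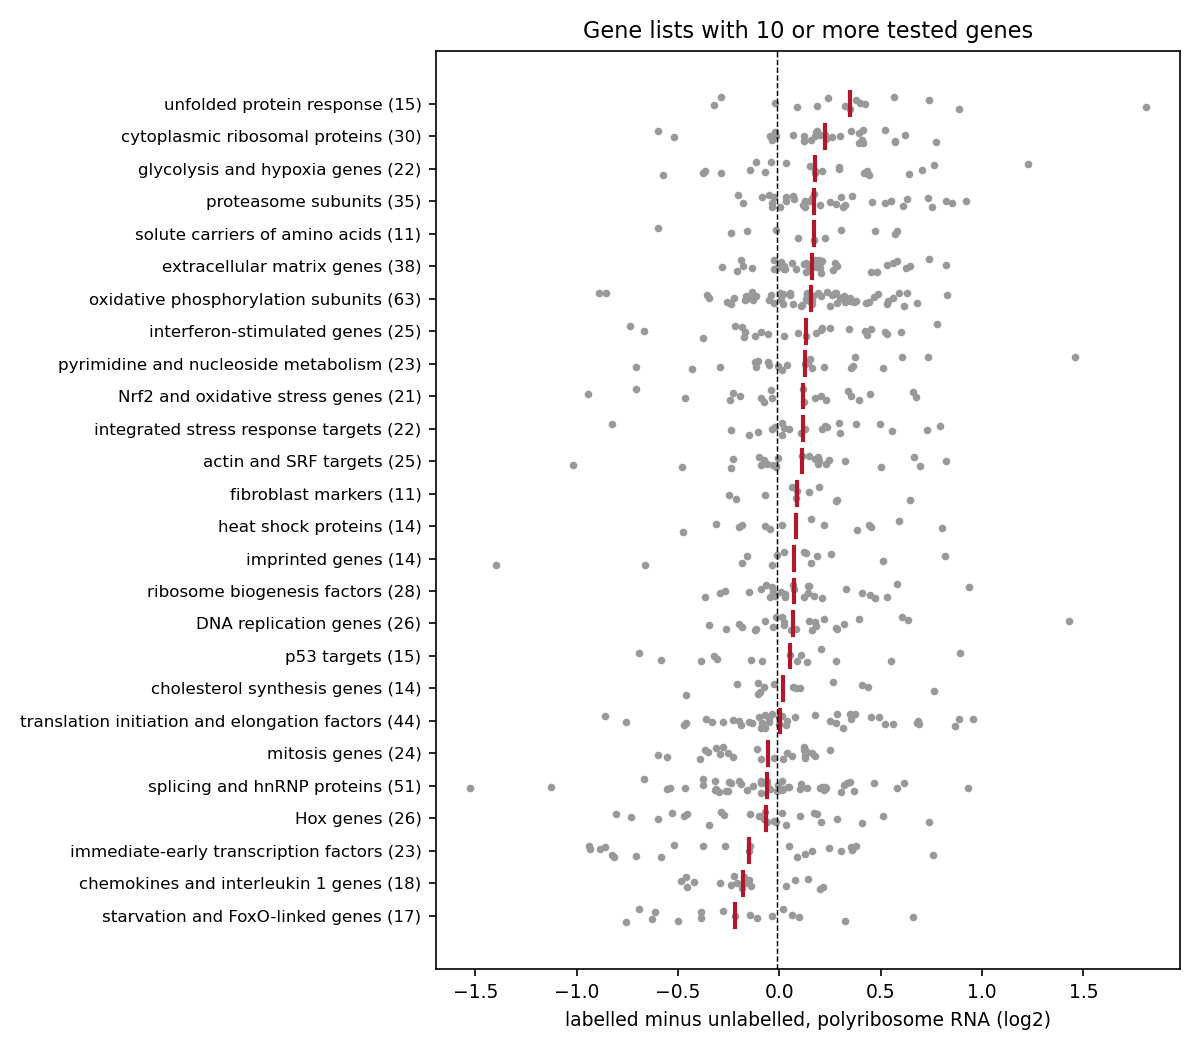
Labelled minus unlabelled level (log2) in polyribosome RNA for gene lists with 10 or more tested genes (number in brackets), 1 grey point per gene, a red bar at the list's median and a dashed line at the median of all genes (-0.01). The unfolded protein response has the rightmost median (0.35), followed by ribosomal proteins (0.23), and the starvation list lies farthest left (-0.22).

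No cell type marker passed, and at the shares of all genes given above such small lists would seldom hold one. All 11 fibroblast markers lay above background, with summed scaled intensity of 12006 and 10271 on labelled arrays, against 11295 and 8631 on unlabelled arrays. Their median difference was 0.09 and none passed. Vim was the dimmest of them, at scaled log2 levels of 4.24 and 3.91 in labelled cultures, against 4.09 and 4.21 in unlabelled cultures. Lum, a matrix proteoglycan, was the most different (0.65 ± 0.18, adjusted p = 0.11).
The cultures also held macrophage marker mRNA, with sums of 1511 and 449 on labelled arrays, against 1164 and 430 on unlabelled arrays. Macrophage markers were above 0 for 8 of 9 tested genes, with a median of 0.22 and none passed. Laptm5, a lysosomal membrane protein of blood cells, had 0.54 ± 0.20 on one probe set and 0.17 ± 0.25 on 100012_at, and Adgre1, which encodes the F4/80 antigen, had 0.63 ± 0.29. Fewer cells of a type and less RNA per cell cannot be told apart in such pools. The part of these cells in the differences above was not tested.
Endothelial marker sums were 306 and 324, against 257 and 228, with Cdh5 and Tie1 above background on no array. The sum is carried by Eng (0.74 ± 0.20), while the median difference of the 6 tested markers was -0.23, with 3 below 0, among them Kdr at -1.10 ± 0.27. Epithelial sums were 91 and 60, against 83 and 63, and skeletal muscle sums 190 and 145, against 181 and 160. Erythroid sums were 27 and 12, against 38 and 25, and liver sums 22 and 19, against 30 and 26. Eif2s3y, a Y-linked gene, read 5.99 and 6.39 in labelled cultures, against 6.04 and 6.44 in unlabelled cultures, a difference of -0.05 ± 0.17. Atf1 could not be read from a probe set with its symbol alone, so the disrupted gene was not checked.

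Undertranslated RNA from the lighter part of the gradient, possibly of the same cultures, gave no probe set that passed between labelled and unlabelled arrays (0% of 9316 by limma, with 699 at an unadjusted p under 0.05). These arrays were dim, and the median absolute difference was 0.52. Labelling differences in the 2 fractions correlated weakly across probe sets (r = 0.063, with 53.5% of the same sign), and 10 of the 25 probe sets that passed had the same sign in undertranslated RNA. Pdia4 read 5.27 and 4.02 in labelled undertranslated RNA, against 6.55 and 4.65 in unlabelled, a difference of -0.96 ± 0.80. Mmp14, which was above background on all 4 of these arrays, had -0.36 ± 0.40.
A test of whether the labelling difference itself differed between fractions passed nowhere either (0% of 9316, with 662 at an unadjusted p under 0.05). For Mmp14 that interaction was 1.69 (unadjusted p = 0.00143, adjusted p = 0.671) and for Pdia4 it was 2.77 (unadjusted p = 0.004, adjusted p = 0.671). Scgb1a1, a secreted protein of airway cells, had the largest positive value, 4.08, and was not above background on either unlabelled polyribosome array. These data therefore do not show whether the differences on polyribosomes are particular to that fraction.

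The genes that rose had a shorter median length in the genome than those that fell. The median span between annotated gene ends (RefSeq, GRCm38.p6) was 6.46 kb over the 11 genes that rose by their highest-level probe set, which leaves out Pdia6, 31.7 kb over the 9 that fell and 20 kb over all 6778 genes with a span. At an unadjusted p under 0.01 it was 10.6 kb for 258 higher genes and 32.5 kb for 262 lower genes. Dennd4c (102 kb) and Kdm6a (119 kb) are among the longest, and Tmem147 (1.83 kb) and Rabac1 (2.98 kb) among the shortest.
Split by span into 5 groups of like size, the median difference was 0.08 for the shortest genes, then 0.05, 0.004, -0.06 and -0.11 for the longest. Across genes, which are not independent replicates, Spearman's rho between span and the labelling difference was -0.195, with -0.183 in the serum-treated pair and -0.149 in the starved pair. It was 0.006 for the labelling difference in undertranslated RNA and -0.087 for the serum response in polyribosome RNA. Gene span and the 3′ to 5′ ratio of the arrays both move with the labelling difference, and the part of either was not tested.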

How the data were processed

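Biotin-labelled, T7-amplified RNA was hybridized to Affymetrix arrays of 12488 probe sets, per the labels' protocols. The authors deposited linear intensity values; how probes were summarised or scaled is not given in the sources used here. The members, gene lists and rules were chosen with earlier results of these data known.

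Of 12422 probe sets that are no controls, 10833 have 1 gene symbol in GEO's platform annotation and were named by it. Values became log2(intensity + 1.5), were quantile normalized over all 10 arrays and filtered at the 25th percentile of mean level. limma 3.58.1 (R 4.3.3) with a variance trend fitted serum state and labelling to the 4 polyribosome arrays, 2 labelled and 2 unlabelled, with two-sided tests. A probe set counted as above background on an array where it exceeded all 19 control probe sets for bacterial and yeast transcripts.

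Candidates for naming were the 12 largest rises and falls that passed with 1 sign in both pairs. Falls were filled up at an unadjusted p under 0.01. Further candidates were up to 4 members per list that passed or else the 2 of lowest p, and 14 fixed genes. Not all of these candidates are described in the text. Other list members were named after their values were seen. Lists use each gene's highest-level probe set. Counts of list members under other scalings were added after seeing the data.

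Replicate numbers coincide with labelling in the labels. Labelling differences of the serum states correlated at 0.286, which a labelling effect or a shared culture would both give, so whether the numbers pair the arrays cannot be told apart from labelling; the labelling term is also the replicate block. The number of arrays limits precision. On simulated data, with 100 probe sets each changed by log2 1 and 2 among 9316, 80% and 95% were recovered, beside 26 false calls. In the real comparison 184 probe sets differed by over 1 and 25 passed in all. The simulated shares should thus not be read as the power on the real arrays.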

Additional observations from a re-analysis of the deposited data

Results flagged for a closer look

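In 11 genes named in the text, each by its highest-level probe set, the labelling difference had opposite signs in the serum-treated pair and in the starved pair. The difference between the pairs was not tested, since each pair is 1 array against 1 array. Given in that order, Fos had -0.60 and 0.30, Actb -0.49 and 0.01, Uck2 -0.18 and 0.08, Uck1 0.31 and -0.33, Xist 0.10 and -0.03, and Trib3 -0.04 and 0.06. Among marker and histone genes Acan had -0.88 and 0.05, Hba-a1 0.03 and -1.26, Fabp4 0.11 and -0.43, Alb 0.08 and -1.19, and H1f2 -0.05 and 0.17. None of the 11 passed in the fit over both serum states.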

How the results depend on the processing

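The count of 25 probe sets with a labelling difference on polyribosomes moved widely with processing. It was 529 for values as deposited (15.5% of them higher, against 60% in the reported fit), 503 with median centring (39% higher), 206 with quantile normalization over the 4 arrays (48.5%), 154 with hybridization control scaling (7.14%), 40 with a pseudocount of 1 (52.5%), 182 with a pseudocount of 4 (49.5%), 174 with a filter at the 50th percentile (46%) and 102 with 1 probe set per gene (47.1%). All 25 remained in the first 3 and with both pseudocounts, 19 with hybridization control scaling. It was 0 without a filter (1749 at an unadjusted p under 0.05), without a variance trend (1293), in the fit of 8 gradient arrays (292) and without the serum factor (1061). With a polyribosome array left out of the 8-array fit the spread comes from the undertranslated arrays alone, so no count is given. Among probe sets above background on all 4 arrays, an alternative chosen after seeing the data, 28 passed, 22 of them the same. Over at most 17 settings each, the values of the 25 kept their side of the threshold in 206 cases, lost it in 206 and never reversed. The count of 0 in undertranslated RNA was 1 with a pseudocount of 4, 3 with 1 probe set per gene and 1576 to 4090 with an undertranslated array left out, where a lone pair takes its spread from the quieter polyribosome arrays; the interaction gave 0 to 3197 likewise. The serum response passed at 150 probe sets with the replicate block and at 6 with no replicate block. With a polyribosome array left out the polyribosome arrays leave no residual for it either, so no count is given. No other paired fit of the labelling difference exists, because the replicate number is the label.

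Some differences that did not pass reversed, and the cause was not tested. With hybridization control scaling these were Atf4 (-0.07), H1f2 (-0.28), Lpl (-0.10), Macroh2a1 (-0.08), S100a4 (-0.02), Trib3 (-0.26) and Xist (-0.20); with median centring H1f2 (-0.03) and Trib3 (-0.01); as deposited H1f2 (-0.17), Trib3 (-0.15) and Xist (-0.09). With an array left out the ranges were -0.88 to 0.05 for Acan, -1.26 to 0.03 for Hba-a1, -0.43 to 0.11 for Fabp4, -1.19 to 0.08 for Alb, -0.05 to 0.17 for H1f2, -0.03 to 0.10 for Xist, -0.04 to 0.06 for Trib3, -0.60 to 0.30 for Fos, -0.18 to 0.08 for Uck2 and -0.49 to 0.01 for Actb.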
